A study of Mus musculus with 8 samples.

Results

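The genes described here are 35 genes of the cell division cycle, 14 that act in DNA replication and 21 that act in G2 phase and mitosis, taken by name from the 15995 genes of the table. All 35 were present. RNA had been sequenced from the epidermis of newborn C57BL/6J mice, in 4 libraries from mice without Zfp750 (genotype ZFP750-/- in the labels) and 4 from wild-type mice. The sheet of epidermis had been lifted off the dermis after a night in trypsin-EDTA at 4 °C, and the same extraction, ribosomal RNA depletion and stranded paired-end library kit served both genotypes. The labels name no drug or other agent. How the knockout allele was made, and whether the libraries of a genotype came from separate pups or litters, is not stated, so the p-values below measure the spread between these samples, which may be technical. Libraries are called knockouts 1 to 4 and wild types 1 to 4. Their titles also carry a code whose meaning is not given: RM11 for knockout 1 and wild type 4, RM14 for knockout 2 and wild type 3, and RM44 for knockouts 3 and 4 and wild types 1 and 2.

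In the epidermis, cells divide mainly in the basal layer and in the growing hair follicles, and leave the cell cycle as they move up and differentiate. Before S phase, the MCM helicase is loaded onto origins of replication by CDC6 and CDT1. Cyclin E with its kinase starts synthesis, the PCNA clamp holds the polymerases on DNA, and ribonucleotide reductase and thymidylate synthase supply the nucleotides. Later, cyclins A and B with CDK1 drive entry into mitosis, where kinesins, Aurora and Polo kinases and the checkpoint proteins build the spindle and time its separation. E2F factors act on many replication genes through E2F sites, and the DREAM and MuvB complexes act on many mitosis genes through the CHR element, often beside CCAAT boxes bound by NF-Y.

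Promoter sequence is shown for 5 of these genes because the genes moved together across libraries, as described below. The sequences are the 170 bases before the start site in RefSeq (GRCm38.p6), 5′ to 3′ on the strand of the gene. Capitals mark every match to an E2F-like octamer (TTTCGCGC, TTTGGCGC, TTTCCCGC or TTTGCCGC), to CHR (TTTGAA) or to CCAAT, on either strand. None of the 5 windows overlaps an exon annotated by GENCODE. Mcm6 (chr1:128359706-128359875, minus strand) and Mcm5 (chr8:75109339-75109508, plus strand) are replication genes with E2F-like matches, and Mki67 (chr7:135716380-135716549, minus strand), Top2a (chr11:99024190-99024359, minus strand) and Kif11 (chr19:37376212-37376381, plus strand) are mitosis genes with CHR matches.
Mcm6: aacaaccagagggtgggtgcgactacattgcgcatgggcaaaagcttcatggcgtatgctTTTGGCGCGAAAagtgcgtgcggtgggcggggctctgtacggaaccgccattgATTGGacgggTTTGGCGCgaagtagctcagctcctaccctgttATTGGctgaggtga
Mcm5: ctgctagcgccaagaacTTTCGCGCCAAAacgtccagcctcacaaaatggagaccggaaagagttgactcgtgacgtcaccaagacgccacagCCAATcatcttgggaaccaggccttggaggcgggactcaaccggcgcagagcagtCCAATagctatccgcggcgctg
Mki67: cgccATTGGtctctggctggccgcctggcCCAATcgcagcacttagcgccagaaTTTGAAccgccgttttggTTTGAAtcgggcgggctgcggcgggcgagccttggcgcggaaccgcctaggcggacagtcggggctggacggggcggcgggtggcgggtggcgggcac
Top2a: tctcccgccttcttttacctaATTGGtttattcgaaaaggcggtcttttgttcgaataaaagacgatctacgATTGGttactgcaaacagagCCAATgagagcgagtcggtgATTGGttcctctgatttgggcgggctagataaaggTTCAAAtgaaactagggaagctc
Kif11: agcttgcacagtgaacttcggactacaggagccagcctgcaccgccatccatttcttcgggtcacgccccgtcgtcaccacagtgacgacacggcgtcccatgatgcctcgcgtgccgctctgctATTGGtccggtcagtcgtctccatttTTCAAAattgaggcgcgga

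In Mcm6 and Mcm5 octamers on opposite strands overlapped in part, 110 and 106 bases before the start in Mcm6 and 153 and 149 bases before it in Mcm5. Mcm6 held another at 47. The CHR match of Top2a lay 23 bases before the start and that of Kif11 19 bases before it, while Mki67 had CHR matches at 116 and 98. Over the 250 bases before the start, 29 of the 35 genes had a RefSeq entry, 12 replication and 17 mitosis genes. Mcm4, Gins2, Ccna2, Aurkb, Kif20a and Tpx2 had none. An E2F-like octamer stood in 4 of the 12 replication genes and 1 of the 17 mitosis genes, against 2.16% of all 27025 genes with an entry. CHR stood in 1 of 12 and 7 of 17, against 18.3% of all, and CCAAT in 8 of 12 and 15 of 17, against 37.5%. All 7 mitosis genes with CHR (Ube2c, Cdc20, Mki67, Ccnb2, Cdk1, Top2a and Kif11) also held CCAAT, a combination found in 7.34% of all genes. Overlapping matches on opposite strands were allowed, and a match describes the letters alone, not binding.

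The targeted gene matched the labels. Zfp750 stood at 2.68, 2.31, 2.29 and 1.53 FPKM (fragments per kilobase of transcript, scaled to the mapped fragments of the library) in knockouts 1 to 4 and at 119, 111, 81.6 and 93.7 FPKM in wild types 1 to 4. Its log2 change was -5.00 ± 0.16 (SE) with an adjusted p of 4.49e-07 in limma. Summed FPKM was 483416 to 577300 per library, and 10637 to 11599 genes reached 1 FPKM. The read depth behind these values is not given, so no counting error can be attached to a single value. Keratinocyte markers placed the tissue as epidermis: Krt14 was at 417 to 3329.9 FPKM, the endothelial and mural markers found in the table summed to at most 2.05 FPKM. Fibroblast markers were present too and summed to 86.6 to 334 FPKM, with Col3a1 at 59.9 FPKM in knockout 2, where erythroid markers summed to 144.6 FPKM. Xist, the RNA that coats the inactive X chromosome of females, was at 126, 84.6, 150.4 and 1.84 FPKM in the knockouts and at 0.0223, 0.0087, 118 and 0.00825 FPKM in the wild types. It was thus uneven between genotypes: every knockout was above 1 FPKM, but only wild type 3 among the wild types. Knockout 4 lay between the libraries with high Xist and wild types 1, 2 and 4.

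None of the 35 genes passed the test between knockout and wild type. At a Benjamini-Hochberg adjusted p of 0.05 in limma, 0 of 14 replication and 0 of 21 mitosis genes were called, against 15.7% of the 11395 genes tested (766 higher and 1019 lower in the knockouts). At an unadjusted p under 0.05 the count was also 0 of 35, against 28.2% of all genes. The adjusted p ran from 0.216 (Mcm6) to 0.843 (Gins2) in the replication genes and from 0.455 (Mki67) to 0.944 (Aurka) in the mitosis genes. All 35 genes had passed the filter on low values, at least 4 of the 8 libraries at 1 FPKM or more, counted without regard to genotype.

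The fitted values nevertheless lay mostly on one side of 0. The log2 change, knockout minus wild type on the log2(FPKM + 1) scale, was above 0 in 13 of 14 replication genes and in 21 of 21 mitosis genes, against 50.9% of all tested genes. Its median was 0.39 in the replication genes and 0.38 in the mitosis genes, against 0.01 over all tested genes. These genes varied together from library to library and are not independent, so no p is given for the shared sign. The 95% intervals were wide: the upper end reached a log2 change of 1, a 2-fold rise, in 10 of 14 replication and 20 of 21 mitosis genes, and the lower end reached -1 in none. The median SE was 0.36 and 0.48 in the groups of genes, against 0.17 over all tested genes.

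**Figure D1:**
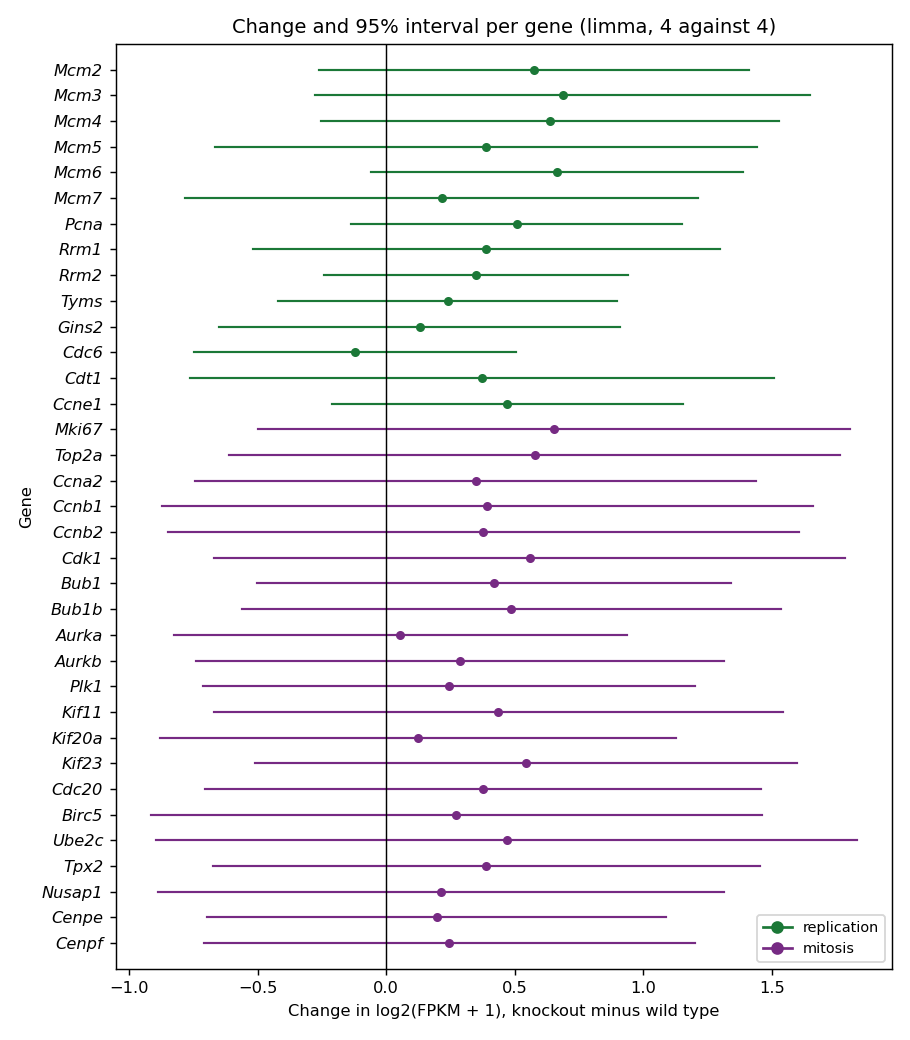
Log2 change of each gene, knockout minus wild type on the log2(FPKM + 1) scale (horizontal axis), as a point with its 95% limma interval, for 4 libraries against 4, replication genes in green and mitosis genes in purple. Every interval includes 0, and the point lies above 0 for 34 of the 35 genes, the exception being Cdc6.

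Levels follow for knockouts 1 to 4 and then for wild types 1 to 4, in FPKM, a level per length. The subunits of the MCM2-7 helicase, which opens the DNA at each origin, come first. Mcm2 stood at 18.7, 19.7, 14.6 and 6.76 FPKM against 4.82, 7.72, 11.6 and 14.7 FPKM. Mcm3 stood at 17.6, 15.4, 11.4 and 5.22 FPKM against 3.03, 5.37, 8.87 and 12.9 FPKM. Knockouts 1 and 2 were highest and wild type 1 lowest in both genes, and the genotypes overlapped. Mcm4 had 31.3, 26.9, 21.3 and 9.77 FPKM against 7.75, 9.16, 16.6 and 22.5 FPKM. Mcm5 had 18.00, 18.3, 12.8 and 4.504 FPKM against 4.65, 6.07, 11.8 and 17.5 FPKM, so that wild type 4 came close to knockouts 1 and 2 and knockout 4 was the lowest library. Mcm6 (ENSMUSG00000026355, chr1:128331590-128359664 in GRCm38) was at 33.6, 35.7, 33.8 and 16.7 FPKM against 11.6, 12.9, 23.3 and 28.2 FPKM. It was the gene nearest to the threshold, with means of 29.9 ± 8.88 FPKM in the knockouts and 18.99 ± 8.08 FPKM in the wild types (SD, n = 4) and a log2 change of 0.66 ± 0.32 (SE, adjusted p = 0.216). Knockout 4, at 16.7 FPKM, was above wild types 1 and 2 and below wild types 3 and 4. Mcm7 stood at 25.2, 23.5, 19.9 and 6.38 FPKM against 8.201, 10.97, 17.3 and 25.9 FPKM, and its highest library was wild type 4. The log2 changes of the other subunits were 0.57 for Mcm2, 0.69 for Mcm3, 0.64 for Mcm4, 0.39 for Mcm5 and 0.22 for Mcm7, with adjusted p in limma from 0.340 to 0.795.

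The factors that load and start the helicase come next. Cdt1, a loading factor, was at 15.4, 17.2, 8.63 and 2.57 FPKM against 4.07, 5.07, 7.64 and 12.7 FPKM. It spanned 6.69-fold between its lowest and highest library, the widest range among the replication genes, and its log2 change was 0.37 ± 0.51 (SE, adjusted p = 0.684). Cdc6, the other loading factor, was at 1.74, 2.43, 1.35 and 0.742 FPKM against 1.05, 1.03, 2.85 and 2.34 FPKM. Its highest library was wild type 3 and its lowest knockout 4, and it was the only one of the 35 genes with a fitted change below 0, at -0.12 ± 0.28 (SE, adjusted p = 0.818). Gins2, a subunit of the GINS complex of the working helicase, stood at 6.07, 4.99, 3.78 and 1.55 FPKM against 1.76, 3.07, 4.02 and 5.39 FPKM. Ccne1, which encodes cyclin E1, was at 3.17, 2.59, 2.25 and 0.772 FPKM against 0.655, 0.859, 1.29 and 2.32 FPKM. Knockouts 1 to 3 were at or above 2.25 FPKM and wild types 1 to 3 at or below 1.29 FPKM, but wild type 4 was above knockout 3, and knockout 4, at 0.772 FPKM, was below wild type 2. The log2 changes of Gins2 and Ccne1 were 0.13 and 0.47.

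Pcna, the sliding clamp (ENSMUSG00000027342, chr2:132249162-132253314), was the most abundant of the 35 genes. It was at 107, 99.8, 77.9 and 46.8 FPKM against 42.04, 47.3, 55.1 and 85.2 FPKM. Its means were 82.9 ± 27.1 FPKM in the knockouts and 57.4 ± 19.3 FPKM in the wild types (SD, n = 4), with a log2 change of 0.51 ± 0.29 (SE, adjusted p = 0.289). Knockout 4 lay between wild types 1 and 2, and wild type 4 was above knockout 3. For nucleotide supply, the large subunit of ribonucleotide reductase, Rrm1, was at 27.6, 27.1, 22.4 and 8.18 FPKM against 9.01, 11.6, 16.5 and 25.6 FPKM, and the small subunit, Rrm2, at 19.6, 20.4, 13.6 and 10.1 FPKM against 8.996, 9.904, 11.8 and 18.4 FPKM. Rrm2 spanned 2.26-fold, the narrowest range of the 35. Tyms, thymidylate synthase, stood at 5.74, 5.64, 4.205 and 2.05 FPKM against 2.099, 2.87, 4.21 and 4.86 FPKM. The log2 changes were 0.39 for Rrm1, 0.35 for Rrm2 and 0.24 for Tyms.

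**Figure D2:**
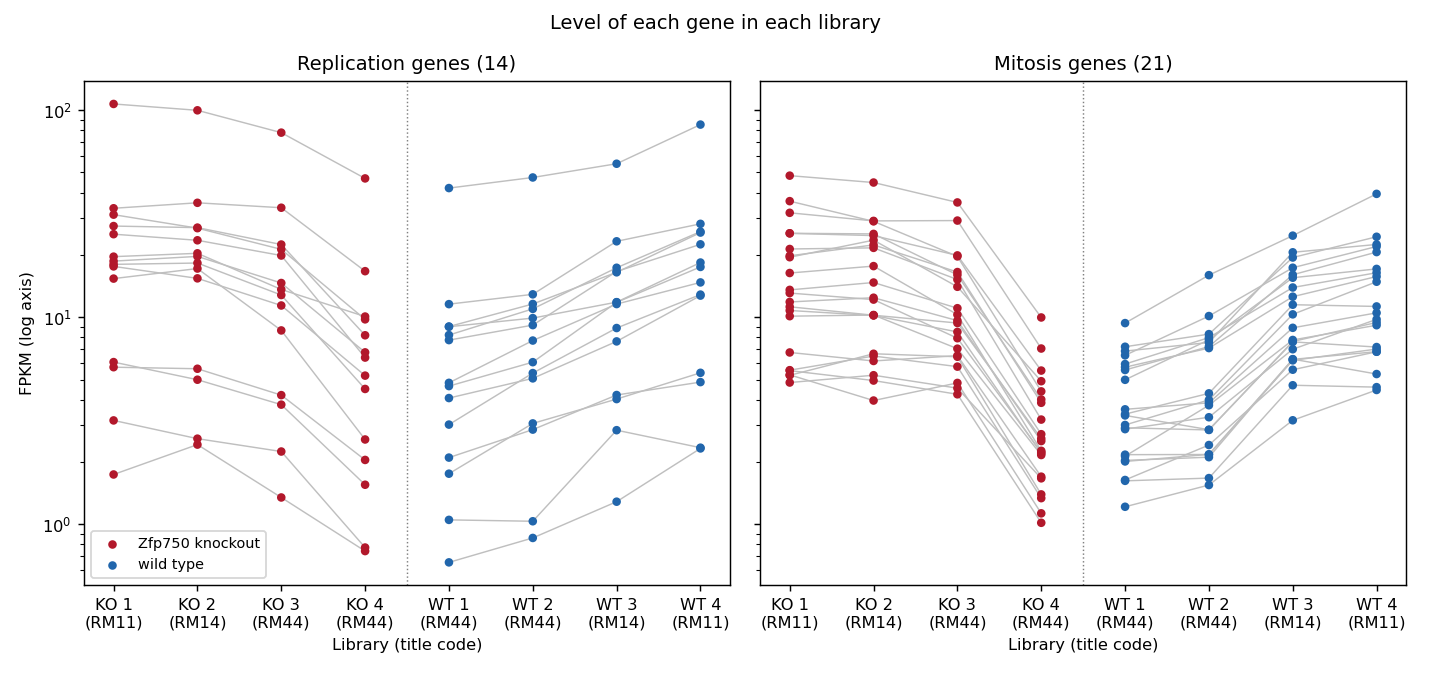
FPKM on a log axis of each of the 14 replication genes (left) and 21 mitosis genes (right) in each library, knockouts in red and wild types in blue, a line joining the values of a gene within a genotype. In every gene the 3 lowest libraries were knockout 4 and wild types 1 and 2.

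Among the mitosis genes, the general markers of dividing cells are Mki67, a coat protein of mitotic chromosomes, and Top2a, the topoisomerase that untangles sister DNA. Mki67 (ENSMUSG00000031004, chr7:135689784-135716361) was at 31.9, 29.2, 29.3 and 7.06 FPKM against 7.201, 8.29, 19.4 and 24.5 FPKM. Its means were 24.4 ± 11.6 FPKM in the knockouts and 14.8 ± 8.46 FPKM in the wild types (SD, n = 4) and its log2 change 0.65 ± 0.51 (SE, adjusted p = 0.455). Knockouts 1 to 3 were above all wild types, and knockout 4, at 7.06 FPKM, was below all of them. Top2a was at 48.3, 44.7, 35.8 and 9.97 FPKM against 9.37, 15.96, 24.8 and 39.4 FPKM, with a log2 change of 0.58 ± 0.53 (SE, adjusted p = 0.526). There knockout 4 lay just above wild type 1, and wild type 4 lay above knockout 3.

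The cyclins and kinase of mitotic entry showed the same layout. Ccna2, cyclin A2, was at 25.4, 24.8, 19.9 and 5.53 FPKM against 6.55, 10.1, 17.3 and 21.95 FPKM. Ccnb1, cyclin B1, was at 25.4, 25.3, 16.01 and 4.01 FPKM against 5.56, 7.21, 16.03 and 20.6 FPKM, and Ccnb2, cyclin B2, at 13.6, 14.7, 11.1 and 2.72 FPKM against 3.02, 3.99, 10.3 and 14.8 FPKM. In each of the 3 cyclins knockout 4 was the lowest of the 8 libraries. Cdk1, their kinase (ENSMUSG00000019942, chr10:69335146-69352938), was at 16.3, 17.7, 10.3 and 2.26 FPKM against 3.59, 3.86, 8.89 and 10.5 FPKM. Its means were 11.6 ± 7.03 FPKM in the knockouts and 6.71 ± 3.51 FPKM in the wild types (SD, n = 4) and its log2 change 0.56 ± 0.55 (SE, adjusted p = 0.556). It spanned 7.80-fold, with knockout 4 at 2.26 FPKM and knockout 2 at 17.7 FPKM. The log2 changes of the cyclins were 0.35 for Ccna2, 0.39 for Ccnb1 and 0.38 for Ccnb2.

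Among the mitotic kinases, Plk1, the Polo-like kinase, stood at 5.24, 6.66, 6.44 and 1.39 FPKM against 2.03, 2.11, 6.27 and 5.32 FPKM. Aurora A, Aurka, which works at the spindle poles, stood at 4.84, 5.25, 4.54 and 1.67 FPKM against 1.64, 2.41, 5.58 and 6.81 FPKM. Its highest library was wild type 4, and its log2 change of 0.06 ± 0.39 (SE, adjusted p = 0.944) was the one nearest to 0. Aurora B, Aurkb, the kinase of the chromosomal passenger complex, was at 10.1, 10.2, 7.05 and 2.16 FPKM against 2.88, 3.29, 7.004 and 9.77 FPKM, and its partner survivin, Birc5, at 21.4, 21.6, 15.2 and 3.204 FPKM against 5.94, 7.97, 13.9 and 16.4 FPKM. In both of the latter, knockouts 1 and 2 were highest and knockout 4 lowest. The log2 changes were 0.24 for Plk1, 0.29 for Aurkb and 0.27 for Birc5.

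The spindle checkpoint kinase Bub1 was at 5.52, 4.94, 4.24 and 1.02 FPKM against 1.22, 1.55, 3.18 and 4.45 FPKM, and Bub1b, which encodes the checkpoint protein BUBR1, at 11.2, 10.2, 9.38 and 2.59 FPKM against 2.13, 3.76, 7.76 and 9.15 FPKM. Cdc20, the activator of the anaphase-promoting complex that the checkpoint holds back, was at 19.5, 23.6, 14.03 and 4.91 FPKM against 4.99, 7.78, 15.5 and 17.1 FPKM. Knockouts 1 and 2 were highest in all 3 genes. Ube2c, the ubiquitin-conjugating enzyme of that complex, was at 36.3, 29.04, 19.7 and 4.38 FPKM against 6.86, 7.55, 20.6 and 22.5 FPKM, and spanned 8.29-fold, the widest range of the 35. Its log2 change was 0.47 ± 0.61 (SE, adjusted p = 0.668), with a 95% interval from -0.90 to 1.83. The log2 changes were 0.42 for Bub1, 0.49 for Bub1b and 0.38 for Cdc20.

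The kinesin Kif11, which pushes the spindle poles apart, was at 19.8, 22.3, 16.5 and 3.86 FPKM against 5.74, 7.09, 12.6 and 15.7 FPKM. Kif23, a kinesin of the central spindle in cytokinesis, was at 13.1, 12.2, 7.92 and 2.23 FPKM against 3.35, 2.86, 7.601 and 7.18 FPKM, with a log2 change of 0.54 ± 0.47 (SE, adjusted p = 0.501). In Kif23 all 3 of knockouts 1 to 3 were above every wild type and knockout 4 was below all of them. Kif20a, another kinesin of cytokinesis, was at 5.55, 6.49, 5.77 and 1.34 FPKM against 2.01, 2.18, 6.19 and 7.02 FPKM, with wild type 4 highest. Tpx2, which starts microtubule growth around chromosomes, was at 10.8, 10.2, 8.49 and 2.200 FPKM against 2.92, 2.85, 7.64 and 9.43 FPKM, and the spindle protein Nusap1 at 11.8, 12.4, 9.63 and 2.52 FPKM against 3.404, 4.29, 11.5 and 11.3 FPKM. The log2 changes were 0.44 for Kif11, 0.12 for Kif20a, 0.39 for Tpx2 and 0.21 for Nusap1. At the kinetochore, the motor Cenpe was at 5.27, 3.96, 4.82 and 1.13 FPKM against 1.62, 1.67, 4.69 and 4.596 FPKM, and the large protein Cenpf at 6.76, 6.15, 6.52 and 1.698 FPKM against 2.17, 2.17, 6.26 and 6.82 FPKM. In both, knockouts 1 to 3 and wild types 3 and 4 made a high group and the other 3 libraries a low one, and the log2 changes were 0.20 and 0.24.

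The libraries fell into nearly the same order in all 35 genes, and that order cut across the genotypes. Knockout 4 and wild types 1 and 2 were the 3 lowest libraries in 35 of 35 genes, against 17.5% of the 11395 tested genes, an order picked out after the values had been seen. Knockouts 1 and 2 were the 2 highest in 24 of 35, against 12.7% of tested genes. The genotypes overlapped in every gene: a full separation of the 4 knockouts from the 4 wild types was seen in 0 of 35, against 21.3% of all tested genes. Knockout 4 was the lowest library in 25 genes and wild type 1 in the other 10. The 3 low libraries all had the code RM44, and the fourth RM44 library, knockout 3, was among the high ones.

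The spread was wider in the mitosis genes. Highest over lowest FPKM had a median of 5.15 (4.01 to 8.29) in the 21 mitosis genes and of 3.97 (2.26 to 6.69) in the 14 replication genes, against 2.02 over all tested genes above 0 in every library. Knockout 4 stood at a median of 0.225 times the mean of the other knockouts in the mitosis genes (0.153 to 0.342) and 0.361 times in the replication genes (0.187 to 0.564), against 0.943 over the same tested genes. The mean of wild types 1 and 2 over that of wild types 3 and 4 had medians of 0.354 and 0.462, against 0.887. Knockout 4 was below both wild types 1 and 2 in 18 of 21 mitosis genes and 7 of 14 replication genes, and above both in 0 and 3. Over the 11395 tested genes it was below both in 4917 and above both in 4513.

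For the contrast of S phase with mitosis, the mean of log2(FPKM + 1) over the 14 replication genes was 4.05, 4.02, 3.64 and 2.66 in knockouts 1 to 4 and 2.59, 2.90, 3.44 and 3.86 in wild types 1 to 4. Over the 21 mitosis genes it was 3.85, 3.84, 3.54 and 1.93 in the knockouts and 2.19, 2.43, 3.43 and 3.65 in the wild types. The genotype difference was 0.39 for replication and 0.37 for mitosis, smaller than the SDs within the genotypes (0.56 to 0.92). Replication minus mitosis was 0.20, 0.18, 0.10 and 0.72 in the knockouts (mean 0.30 ± 0.29, SD, n = 4) and 0.40, 0.47, 0.0047 and 0.21 in the wild types (0.27 ± 0.21). The balance thus differed between genotypes by 0.03, well within the spread. With 1 library left out this difference ran from -0.11 (without knockout 4) to 0.09, so its sign was not settled. The balance was tilted most toward replication in the 3 libraries where both groups of genes were low. No test was made of this score, whose genes were chosen with results known.

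**Figure D3:**
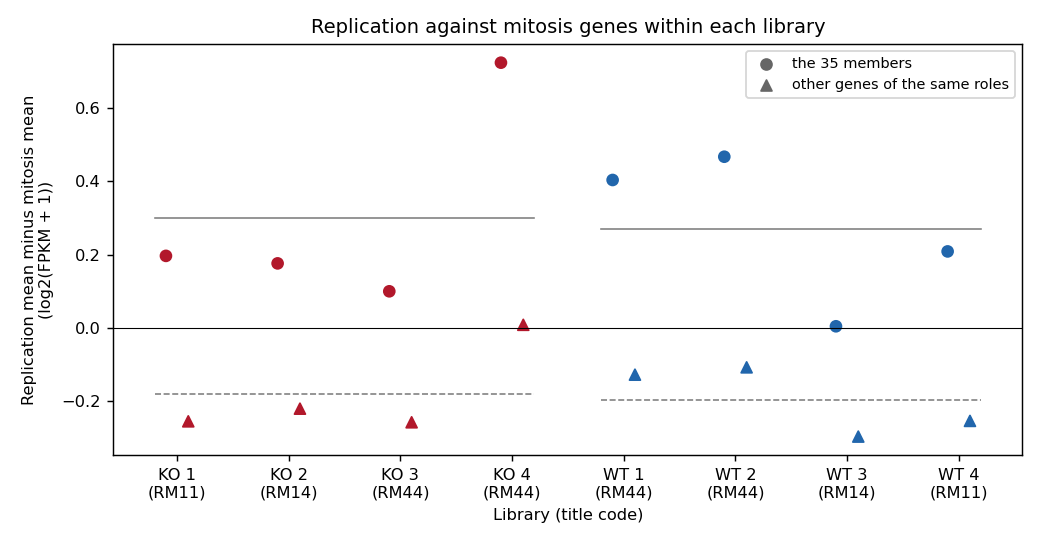
Mean log2(FPKM + 1) of the replication genes minus that of the mitosis genes in each library, for the 35 genes (circles) and for 46 other replication and 70 other mitosis genes (triangles), with a line at each genotype's mean (solid for circles, dashed for triangles). Knockout 4 and wild types 1 and 2 had the highest differences in both sets, and the genotype means lay close together.

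Within codes, knockout minus wild type of the mean log2 level was 0.19 for replication and 0.20 for mitosis in RM11, 0.58 and 0.41 in RM14, and 0.40 and 0.43 in RM44. RM11 and RM14 hold 1 library of each genotype and RM44 holds 2, so the first 2 values have no replicates. By gene, the knockout was above the wild type in 28 of 35 genes in RM11, against 35.98% of all tested genes, and in 31 in RM14, against 49.4%. In RM44 the knockout mean was above the wild-type mean in 34 of 35, against 58.5%. Both RM44 knockouts were above both RM44 wild types in 3 of the 35 genes (Mcm4, Mcm6 and Rrm2), against 34.2% of all tested genes. A test of whether the genotype difference depended on the code (RM44 against the others) called 0 of 35 genes and 0% of the 11395 tested. At an unadjusted p under 0.05 it picked 0 of the 35 and 1771 of all genes, and the smallest adjusted p of the 35 was 0.579 (limma).

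Whether any of the 35 genes passed depended on the libraries and their weights. Without knockout 4, limma called 4 genes higher, against 20.1% of 11584 genes: Mcm6 at a log2 change of 0.91 (adjusted p = 0.0466), Pcna at 0.76 (0.0457), Cdk1 at 1.12 (0.0499) and Kif23 at 1.01 (0.0494). The medians were then 0.76 in the replication and 0.83 in the mitosis genes. With limma's array weights, which give less weight to libraries far from their group, 16 genes passed, all higher, against 32.2% of the 11395 genes, and the medians were 0.85 and 1.004. They were Mcm2, Mcm3, Mcm4, Mcm6, Pcna, Rrm1, Rrm2 and Ccne1 among the replication genes and Mki67, Top2a, Cdk1, Bub1, Bub1b, Kif11, Kif23 and Ube2c among the mitosis genes. In the 4 libraries of RM11 and RM14 alone, Cdk1 (0.75 ± 0.16, SE, adjusted p = 0.0276) and Kif23 (0.70 ± 0.15, adjusted p = 0.0281) passed, against 14.8% of 11713 genes. At an unadjusted p under 0.05 in limma the counts were 20 of 35 without knockout 4, 30 with array weights and 13 in RM11 and RM14 alone. The share of all tested genes at that cut is not given for these fits, so these counts cannot be read as particular to the 35 genes. In the main fit that share was 28.2%.

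In the other direction, the sign of the fitted changes turned when Xist entered the fit. Xist was at 1.84 FPKM or below in all 3 libraries with low levels of the 35 genes, but also in wild type 4, where they were high. With log2 Xist as a covariate, 28 of 35 changes were below 0 (7 replication and 21 mitosis genes), with medians of 0.01 and -0.34. Of the 35, 0 passed, against 10.0% of the 11395 genes, and 0 had an unadjusted p under 0.05 in limma. In knockouts 3 and 4 and wild types 1, 3 and 4 alone, whose columns share a number of unknown meaning and which were set apart after the data were seen, 29 of 35 were below 0, with medians of -0.14 and -0.36. Again 0 of 35 passed, against 6.04% of 11702 genes, and 0 had an unadjusted p under 0.05 in limma. The sign of the genotype difference thus changed with Xist in the fit and with the libraries compared.

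Markers of cell types that hold dividing cells followed the library order of the 35 genes in part. The mean log2(FPKM + 1) of the basal keratinocyte list was 6.87, 6.54, 6.54 and 5.84 in the knockouts and 4.67, 5.03, 5.74 and 6.13 in the wild types. Of its 17 genes, 9 rose in the knockouts and 0 fell, against 766 and 1019 of the 11395 tested genes. In 7 of the 17, knockout 4 and wild types 1 and 2 were the 3 lowest libraries. In 13 of the 17, against 3 of the 35 genes and 4513 of the 11395 tested genes, knockout 4 was above both wild types 1 and 2. Krt5, the keratin of basal cells, was at 1803, 1378, 1505 and 531 FPKM in the knockouts and 358, 554, 891 and 1260.4 FPKM in the wild types. Krt14, its partner, was at 3329.9, 2202, 2758 and 1112 FPKM against 417, 613, 1215 and 1253 FPKM. The integrins of basal cell adhesion parted the genotypes: Itgb4 was at 77.0, 65.7, 85.7 and 79.2 FPKM against 9.18, 11.96, 28.0 and 27.6 FPKM (log2 change 2.09 ± 0.33, SE, adjusted p = 0.00254 in limma). Itgb1 was at 138.7, 133.1, 97.8 and 94.5 FPKM against 11.6, 13.1, 30.3 and 33.9 FPKM (2.46 ± 0.34, adjusted p = 0.00118). Within the genotypes they kept part of the library order. In both, wild types 1 and 2 were below wild types 3 and 4, and in Itgb1 knockout 4 was the lowest knockout. In Itgb4, knockout 4 was not low among the knockouts.

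The hair follicle list had means of 3.09, 3.33, 2.97 and 2.29 in the knockouts and 2.23, 1.96, 3.28 and 3.30 in the wild types, with 0 of 11 tested genes passing. Shh, the signal of growing follicles, was at 11.4, 9.92, 9.83 and 1.93 FPKM against 1.49, 2.36, 7.72 and 8.28 FPKM. The melanocyte list had means of 3.13, 3.02, 3.07 and 1.48 against 1.32, 1.95, 2.50 and 3.01, with 0 of 8 passing. Knockout 4 and wild types 1 and 2 had the 3 lowest means in both lists, and were the 3 lowest libraries in 7 of 11 follicle and 7 of 8 melanocyte genes. Of the other follicle genes, Msx2 was highest in knockout 4, at 2.82 FPKM, and the inner root sheath keratin Krt71 was at 0.115, 2.61, 0.790 and 1.28 FPKM against 4.397, 0.242, 9.45 and 4.61 FPKM. The differentiated keratinocyte list ran the other way, at 8.82, 8.999, 9.02 and 9.36 against 9.35, 9.25, 9.22 and 9.04. Of its 14 genes 1 was higher and 3 lower, against 766 and 1019 of the 11395 tested genes. In bulk tissue, fewer dividing cells and less RNA of these genes per cell cannot be told apart, and the part of these cell types in the result was not tested.

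**Figure D4:**
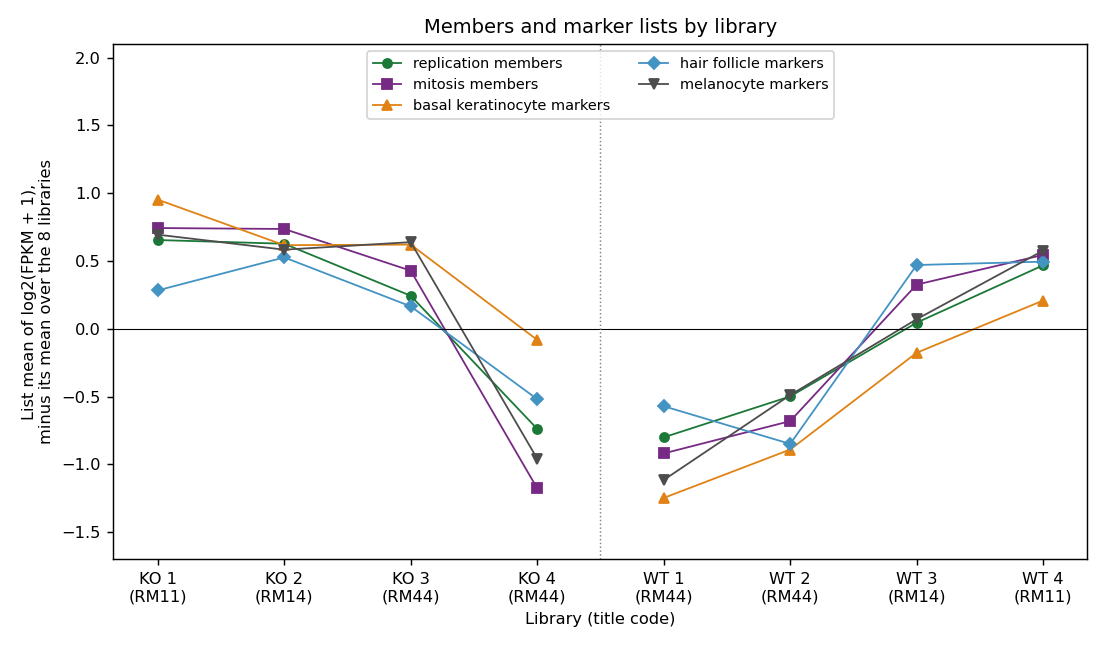
Mean log2(FPKM + 1) of the replication and mitosis genes and of 3 lists of cell type markers in each library, minus each list's mean over the 8 libraries, lines joining a list within a genotype. All 5 lists were lower in knockout 4 than in the other knockouts, and lower in wild types 1 and 2 than in wild types 3 and 4.

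Leukocyte markers differed between genotypes without following that order. Their mean was 0.65, 0.98, 0.80 and 0.71 in the knockouts and 1.95, 2.16, 2.66 and 2.12 in the wild types. Of their 7 tested genes 6 were lower and 0 higher, against 1019 and 766 of all 11395. Fibroblast markers were at 3.57, 5.80, 4.55 and 3.32 against 3.07, 4.08, 4.18 and 4.21, with 0 of 5 passing, and knockout 2 was highest. Here knockout 4 was again the lowest knockout, and wild types 1 and 2 were below wild types 3 and 4, though knockout 1 was below wild type 2. Summed FPKM of the fibroblast markers was lowest in knockout 4 and wild types 1 and 2, at 86.6, 99.9 and 143.4 FPKM. Erythroid markers had 0 of 3 passing, with means of 1.39 to 4.04 in the knockouts and 1.62 to 2.94 in the wild types.

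Other genes of the same processes were read from wider lists. Of 47 other replication genes 46 were tested and 0 passed, with 42 changes above 0 and a median of 0.24. The smallest p belonged to Dbf4, the activator of the origin kinase CDC7, at 14.4, 15.4, 11.02 and 5.14 FPKM against 4.44, 3.92, 6.82 and 7.89 FPKM (log2 change 0.83 ± 0.32, SE, adjusted p = 0.120). Dbf4 did pass with the RM code as a replicate block (adjusted p = 0.0240 in limma), in RM11 and RM14 alone (0.0139), with array weights (0.00368) and without knockout 4 (0.00909). The helicase gene Recql4 had a log2 change of 0.39 (adjusted p = 0.186 in limma) and passed with array weights (0.0310) and quantile normalisation (0.0469). Among 70 other mitosis genes, 56 changes were above 0, with a median of 0.26, and 3 passed, against 15.7% of all tested genes. Knockout 4 and wild types 1 and 2 were the 3 lowest libraries in 38 of the 46 replication and 63 of the 70 mitosis genes as well.

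The 3 that passed did not follow the order. Tubb4b, a beta tubulin used in many cell types, was at 543, 591, 522 and 600.5 FPKM in the knockouts and 368, 383, 286 and 332 FPKM in the wild types (log2 change 0.73 ± 0.12, SE, adjusted p = 0.00425). Fam83d, a spindle-associated protein, was lower in the knockouts at 17.2, 21.5, 24.1 and 25.6 FPKM against 35.7, 44.9, 33.7 and 36.1 FPKM (-0.75 ± 0.15, adjusted p = 0.00875). Ttk, the checkpoint kinase MPS1, was lower at 4.47, 4.50, 6.06 and 4.77 FPKM against 7.83, 10.1, 6.34 and 9.45 FPKM (-0.65 ± 0.17, adjusted p = 0.0274). The groups did not overlap in any of the 3, which was also so in 21.3% of all tested genes. Ttk lost its call without any one of knockouts 1 and 2 and wild types 1, 2 and 4 (adjusted p up to 0.0850). The call of Ttk also ended in RM44 alone (adjusted p = 0.126 in limma), in RM11 and RM14 alone (0.0723) and with the Xist covariate (0.158). In the 5 libraries that share a column number its adjusted p was 0.313. The call of Fam83d ended with the Xist covariate (adjusted p = 0.0598 in limma), in RM44 alone (0.0576) and in the 5 libraries that share a column number (0.0948), and that of Tubb4b in the last 2 (0.0537 and 0.0616).

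Among regulators of the cycle, 47 were tested, with 4 higher and 2 lower, against 15.7% of all 11395 tested genes called in either direction. Of the 47 changes 33 were above 0, against 50.9% of all tested genes, and the median was 0.23. Ccnd3, the D-type cyclin D3, was at 81.2, 82.0, 87.3 and 94.98 FPKM in the knockouts and 40.7, 39.5, 39.6 and 49.4 FPKM in the wild types (log2 change 1.02 ± 0.11, SE, adjusted p = 3.19e-04). Cdkn1a, the inhibitor p21, was at 149.7, 135, 139 and 210.2 FPKM against 90.7, 83.7, 74.5 and 105 FPKM (0.82 ± 0.17, adjusted p = 0.00915). In both genes every knockout was above every wild type and knockout 4 was the highest library. E2f2, an activating E2F factor, was at 8.17, 11.3, 15.3 and 24.7 FPKM against 5.42, 3.34, 6.50 and 4.58 FPKM (1.34 ± 0.30, adjusted p = 0.0164), also with knockout 4 highest. Mdm2, the ubiquitin ligase of p53, was higher at 32.8, 34.1, 26.8 and 16.8 FPKM against 17.6, 13.9, 15.0 and 14.1 FPKM (0.78 ± 0.21, adjusted p = 0.0321), with knockout 4 below wild type 1.

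The 2 lower regulators are brakes on the cycle. Btg1, an antiproliferative factor, was at 89.7, 85.5, 70.5 and 56.8 FPKM in the knockouts and 127, 128, 121 and 125 FPKM in the wild types (-0.74 ± 0.15, SE, adjusted p = 0.00804). Cdkn2c, the inhibitor p18, was at 3.51, 2.58, 3.18 and 1.33 FPKM against 4.88, 5.29, 8.41 and 5.91 FPKM (-0.98 ± 0.24, adjusted p = 0.0217). The call of E2f2 ended without knockout 3 or wild type 2 (adjusted p up to 0.0514), that of Cdkn2c without knockout 2 or wild type 3 (up to 0.0526), and that of Mdm2 without any single library other than knockout 4 (up to 0.0893). In RM11 and RM14 alone, Btg1 (0.0974), Cdkn1a (0.0847) and E2f2 (0.0767) did not pass. Mdm2 did not pass with the Xist covariate (adjusted p = 0.184 in limma). In RM44 alone, Mdm2 (0.342) and Cdkn2c (0.115) did not pass. In the 5 libraries that share a column number, Mdm2 (0.354), Cdkn2c (0.0894) and Cdkn1a (0.0732) did not pass.

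Regulators chosen after their values were seen included the transcription factors of the replication and mitosis programmes. Foxm1, which acts on mitosis genes, was at 9.33, 7.08, 6.47 and 1.51 FPKM in the knockouts and 1.77, 2.66, 5.34 and 6.13 FPKM in the wild types (log2 change 0.44). Mybl2, its partner on CHR elements, was at 3.35, 3.01, 2.12 and 0.642 FPKM against 0.726, 0.919, 2.17 and 2.20 FPKM. E2f1 was at 3.61, 2.55, 2.38 and 1.07 FPKM against 0.676, 1.09, 1.48 and 2.79 FPKM. All 3 had the library order of the 35 genes. Myc was at 107, 87.8, 90.0 and 41.8 FPKM against 41.5, 54.1, 25.2 and 38.1 FPKM (log2 change 0.99 ± 0.31, SE, adjusted p = 0.0568). Trp53, which encodes p53, was at 32.4, 32.5, 26.4 and 19.7 FPKM against 9.19, 14.3, 17.2 and 22.8 FPKM (0.81 ± 0.26, adjusted p = 0.0643). The inhibitor gene Cdkn1b, p27, had means of 22.4 ± 3.81 and 24.2 ± 4.86 FPKM (SD, n = 4).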

How the data were processed

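Gene levels in 4 knockout and 4 wild-type libraries came as FPKM values in a table the authors deposited. The submitters' processing notes name mm10 as the build. Aligner, quantifier, annotation and strandedness of counting were not given in the sources used here. Reads may be split wrongly between overlapping genes. A missing value (2029 of 15995 genes in at least 1 library) was taken as 0. Krt1, Krt10, Flg2 and Rn45s, at 0 in some libraries and high in others, were left out of the tests.

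Genes reaching 1 FPKM in at least 4 libraries (3 of 7, or 2 of 4 or 5, in smaller fits) were tested on log2(FPKM + 1), which understates changes of low genes, with limma 3.58.1 (R 4.3.3), a mean-variance trend and equal weights. P-values were Benjamini-Hochberg adjusted over all tested genes. The fit was tested on simulated data with noise drawn separately for each gene and library. Those data held no movement shared between genes, so that test does not cover the shared movement of the 35 genes. FPKM values hold no counts, so no count model was used. The 35 genes and all lists were chosen with earlier results of these data known. Named were all 35, Zfp750, Xist and, from each other list of cell cycle genes, up to 6 that passed or else the 3 with the smallest p. Of these, 1 gene is not reported here. Marker lists are given as counts and levels with Krt5, Krt14, Itgb1 and Itgb4, and Shh, Msx2, Krt71 and Col3a1 were added after their values were seen. In the other mitosis list 4 genes were found by older symbols (Casc5, Sgol1, Sgol2 and Fam64a). The alternatives were other pseudocounts, filters, scalings and weights, a block, a covariate and fewer libraries. Promoters were taken from RefSeq (GRCm38.p6), and gene coordinates from GENCODE on the same build.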

Additional observations from a re-analysis of the deposited data

Results flagged for a closer look

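In 8 of the 35 genes knockout 4 lay far below the other 3 knockouts. The gap to the nearest knockout on the log2(FPKM + 1) scale exceeded Dixon's 95% critical share of the range of the 4. Knockout 4 was at 16.7 FPKM for Mcm6, the only replication gene among them. For the mitosis genes it was at 7.06 FPKM for Mki67, 5.53 FPKM for Ccna2, 2.59 FPKM for Bub1b, 1.67 FPKM for Aurka, 1.34 FPKM for Kif20a, 2.20 FPKM for Tpx2 and 1.698 FPKM for Cenpf. The rule was applied to 70 groups, 35 genes in each genotype, and no wild type was singled out by it. Chance flags about 1 in 20 groups, and the genes move together, so these 8 are not independent. Among all tested genes knockout 4 stood out in this way in 4.33%.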

How the results depend on the processing

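The pseudocount, the filter, 2 scalings and RM44 alone left the count of the 35 genes called at 0 in limma (0 or 1 at an unadjusted p under 0.05). Ccne1 did not pass the filter in RM44 alone. The count of genes called lower was 0 under every alternative run. The genes called higher became 16 with array weights, 2 in RM11 and RM14 alone and 0 to 4 when each library was left out, the 4 being without knockout 4. All calls between genotypes, 1785, became 3669 with array weights, 1141 with the Xist covariate and 707 in the 5 libraries that share a column number (chosen after seeing the data), and ran from 1123 (without wild type 1) to 2326 (without knockout 4) with a library left out. Replication minus mitosis, 0.03, became 0.30 with the Xist covariate, 0.21 in the 5 libraries that share a column number and -0.14 with array weights, and ran from -0.11 to 0.09 with a library left out. The medians ran from 0.20 to 0.76 for replication and 0.08 to 0.83 for mitosis with a library left out, highest without knockout 4 and lowest without wild type 1. For the named genes outside the 35, 34 calls were lost over all alternatives and 6 were gained (Dbf4 and Recql4).

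With the RM code as a replicate block, 2261 genes passed and 0 of the 35. At an unadjusted p under 0.05 in limma 5 of the 35 did, a count given without the share of all tested genes. Deviations of same-code pairs correlated at 0.389 (RM11), 0.238 (RM14) and -0.154 to 0.427 (RM44). For pairs of different codes the correlations ran from -0.435 to 0.202. The code was not taken as a pairing in the main fit because the labels do not say what it marks.

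Signs turned, with no gene past the threshold, as follows. In RM11 and RM14 alone, Aurka was at -0.25, Kif20a -0.12, Cenpe -0.0176 and Cenpf -0.0166. Cdc6 was at 0.27 with array weights. With a library left out, Gins2 ran from -0.0896 to 0.43, Aurka from -0.22 to 0.34, Kif20a from -0.10 to 0.52, Cdc6 from -0.27 to 0.0507, Mcm7 from -0.0276 to 0.64 and Nusap1 from -0.0569 to 0.66. With the Xist covariate the log2 changes were -0.21 for Mcm5, -0.35 for Mcm7, -0.0896 for Rrm1, -0.14 for Tyms, -0.28 for Gins2, -0.21 for Cdt1, -0.11 for Mki67, -0.0895 for Top2a, -0.34 for Ccna2, -0.41 for Ccnb1, -0.37 for Ccnb2, -0.24 for Cdk1, -0.13 for Bub1, -0.19 for Bub1b, -0.47 for Aurka, -0.32 for Aurkb, -0.48 for Plk1, -0.27 for Kif11, -0.55 for Kif20a, -0.19 for Kif23, -0.32 for Cdc20, -0.50 for Birc5, -0.47 for Ube2c, -0.30 for Tpx2, -0.57 for Nusap1, -0.44 for Cenpe and -0.41 for Cenpf. In the libraries that share a column number they were -0.34 for Mcm5, -0.42 for Mcm7, -0.19 for Rrm1, -0.0900 for Rrm2, -0.19 for Tyms, -0.35 for Gins2, -0.53 for Cdt1, -0.0536 for Mki67, -0.14 for Top2a, -0.33 for Ccna2, -0.54 for Ccnb1, -0.42 for Ccnb2, -0.41 for Cdk1, -0.18 for Bub1, -0.0969 for Bub1b, -0.42 for Aurka, -0.46 for Aurkb, -0.30 for Plk1, -0.32 for Kif11, -0.49 for Kif20a, -0.33 for Kif23, -0.37 for Cdc20, -0.56 for Birc5, -0.59 for Ube2c, -0.36 for Tpx2, -0.52 for Nusap1, -0.31 for Cenpe and -0.33 for Cenpf. The cause was not tested.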
